A study of Saccharomyces cerevisiae with 18 samples.

Results

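The genes of 10 plasma membrane amino acid permeases of budding yeast were followed through exposure of the cells to the 3 isomers of nitrophenol. These genes were chosen by name, with earlier results of these data known. They are AGP1, GNP1, BAP2, BAP3, TAT1, TAT2, DIP5, GAP1, HIP1 and CAN1, and all 10 had a probe among the 5365 named genes of the array. Cells of Saccharomyces cerevisiae strain S288C, growing exponentially in YPD (rich glucose medium) at 25 °C, were exposed for 2 h to one isomer, with p-nitrophenol used at 1.5 mM, the m isomer at 5 mM and the o isomer at 3 mM. The isomers carry the nitro group at different positions of the phenol ring, opposite (para), one carbon removed from (meta) or next to (ortho) the hydroxyl group. Each isomer had 3 independent biological samples, and each sample was hybridised to its own 2-colour array, with treated RNA in Cy5 and RNA taken before treatment in Cy3. A value is a log2 ratio, read as positive where treated cells held more of the RNA. This reading rests on the dyes and channels in the labels and is likely, since the values themselves come without a stated direction.

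Yeast imports amino acids with proton-driven permeases that differ in their substrates. Amino acids outside the cell are detected by the SPS sensor (Ssy1, Ptr3 and Ssy5), which releases the transcription factors Stp1 and Stp2 by proteolysis, and these switch on AGP1, GNP1, BAP2, BAP3, TAT1, DIP5 and the peptide transporter gene PTR2. GAP1, for the general permease, is instead held low on good nitrogen sources and activated by the GATA factors Gln3 and Gat1 when nitrogen is poor. HIP1, CAN1 and TAT2 encode permeases for histidine, for arginine and for tryptophan and tyrosine.

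The arrays held values for unequal numbers of genes, from 1970 on m-nitrophenol array 1 to 5343 on m-nitrophenol array 3. That first array measured only 3 of the 10 permease genes (BAP2, TAT1 and DIP5), p-nitrophenol array 1 measured 8 and o-nitrophenol array 1 measured 9, while the other 6 arrays measured all 10. Arrays numbered 1 correlated with the others of their isomer at r = 0.51 to 0.61 across genes, against 0.84 to 0.88 between arrays 2 and 3 (genes are not independent replicates). Each of the 3 arrays numbered 1 correlated most highly with an array of another isomer. For p-nitrophenol array 1 this was m-nitrophenol array 3 (0.75). For the first arrays of m- and o-nitrophenol it was p-nitrophenol array 1 (0.64 and 0.60). Calls of the 10 genes that change without the 3 arrays numbered 1 are therefore given both ways, except 1 lower call between o and m that is only counted. All 10 genes were among the 5096 tested with limma. Means are given ± their standard error, and every adjusted p comes from limma with Benjamini-Hochberg adjustment over the genes tested in its fit and a threshold of 0.05. The fit of all arrays tested 5096 genes. High-power scans alone allowed 5037 to be tested, low-power scans alone 3776, all scans 5173, and no filter on numbers of arrays 5336. Without the 3 arrays numbered 1, limma called 2145, 2042 and 2622 of the 5096 genes in p-, m- and o-nitrophenol. With all arrays it called 1267, 913 and 1652. Between o and p, and o and m, the numbers were 1081 and 1048, against 60 and 37 with all arrays. Because the arrays include neither a culture kept untreated for 2 h nor a dye swap, growth over that time and any dye effect are part of each contrast with the time before treatment.

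After p-nitrophenol 5 of the 10 permease genes fell (AGP1, GNP1, BAP3, TAT1 and TAT2) and 0 rose, where 11.9% of all tested genes fell and 13.0% rose. At an unadjusted p under 0.05 the numbers were 7 and 1. After m-nitrophenol 2 fell (AGP1 and TAT1) and 0 rose, against 9.65% and 8.26% of all genes, and 4 and 0 at an unadjusted p under 0.05. After o-nitrophenol 4 fell (GNP1, TAT1, TAT2 and DIP5) and 1 rose (AGP1), against 18.7% and 13.8% of all genes, and 4 and 1 at an unadjusted p under 0.05. Of all calls in o-nitrophenol 42.4% were higher, and 54.5% after centring each array on its median, under which AGP1 stayed higher. The median log2 ratio of the 10 genes was -1.38 in p-, -1.0 in m- and -0.76 in o-nitrophenol, beside medians of 0.10, 0.04 and -0.17 over all tested genes. Array by array the median of the measured permease genes ran from -1.81 to -0.75 in p-, from -1.18 to -0.76 in m- and from -1.18 to -0.40 in o-nitrophenol. AGP1 and TAT1 were called in all 3 treatments, TAT1 lower in each and AGP1 lower in 2 and higher in 1.

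**Figure D1:**
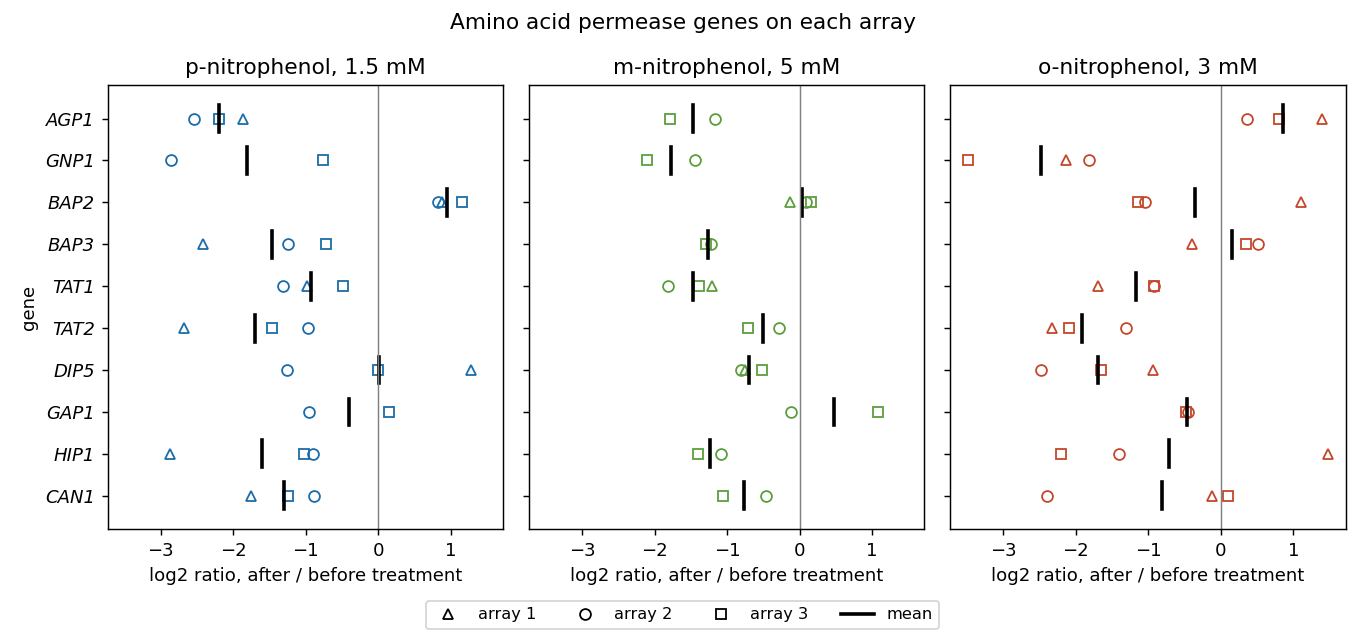
Log2 ratio (after over before treatment, horizontal) of the 10 permease genes (vertical) on each array of p-, m- and o-nitrophenol; triangles, circles and squares are arrays 1, 2 and 3, and bars are group means. AGP1 lies below 0 on every p- and m-nitrophenol array that measured it and above 0 on all 3 o-nitrophenol arrays, and TAT1 lies below 0 on all 9.

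AGP1, a broad-range permease and the best-known target of the SPS sensor, had the largest difference between isomers among these 10 genes. Its log2 ratios were -1.87, -2.55 and -2.20 on p-nitrophenol arrays 1, 2 and 3, -1.16 and -1.79 on m-nitrophenol arrays 2 and 3, and 1.40, 0.36 and 0.80 on the o-nitrophenol arrays. No o-nitrophenol array overlapped with those of the other isomers. How many of all genes separate in this way was not counted, here and for the genes below. AGP1 fell by 2.20 ± 0.29 in p-nitrophenol (4.61-fold, adjusted p = 0.00177) and by 1.48 ± 0.35 in m-nitrophenol (adjusted p = 0.0213). The p-nitrophenol call held under all 19 alternatives of the processing, with adjusted p up to 0.0185. The m-nitrophenol call ended with high-power scans alone (adjusted p = 0.0598), with all scans and the array as a random block (0.0761), without m-nitrophenol array 2 (0.113) and without array 3 (0.237).

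In o-nitrophenol AGP1 rose by 0.85 ± 0.29 (1.81-fold, adjusted p = 0.0489), close to the threshold. That call held under 7 of the 19 alternatives, with means from 0.58 to 1.10 and adjusted p from 0.0286 to 0.178. Among leave-one-out fits it ended without p-nitrophenol array 2 (0.0616) or 3 (0.0759), without m-nitrophenol array 2 (0.0678) or 3 (0.068) and without o-nitrophenol array 1 (mean 0.58, 0.178), 2 (0.0625) or 3 (0.144). Without all 3 arrays numbered 1 the mean was 0.58 (0.0891). The scans of o-nitrophenol array 1 gave AGP1 a log2 ratio of 2.13 at high and 0.66 at low power. AGP1 is spotted with 2 probes whose deposited values are identical in every column, so they count as 1 measurement.

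The difference in AGP1 between o- and p-nitrophenol was 3.06 ± 0.41 on the log2 scale (95% confidence interval 2.14 to 3.97, 8.32-fold, adjusted p = 0.00897). It ranked above 99.2% of all tested genes. AGP1 was the 1 permease gene called higher in that comparison and 0 were called lower, where 0.824% and 0.353% of all genes were called. At an unadjusted p under 0.05, 2 were higher and 2 lower. With the replicate number as a block AGP1 and BAP3 were called higher, 2 genes. The difference ranged from 2.78 to 3.32 over the alternatives, and 16 of the 19 kept the call. It ended without p-nitrophenol array 2 (adjusted p = 0.0555) or 3 (0.0664) and without o-nitrophenol array 3 (0.0559).

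Between o- and m-nitrophenol AGP1 differed by 2.33 ± 0.46 (interval 1.30 to 3.36, adjusted p = 0.0539), which just missed the threshold. The call was made under 8 of the 19 alternatives, with adjusted p from 0.00664 to 0.242, among them the fit with the replicate number as a block (difference 2.11, 0.0386), that without the 3 arrays numbered 1 (2.06, 0.00664), and those without p-nitrophenol array 1 (0.0381), m-nitrophenol array 1 (0.0409) or o-nitrophenol array 1 (0.0384). m-Nitrophenol exceeded p-nitrophenol by 0.73 ± 0.46 (interval -0.30 to 1.75, adjusted p = 0.798). The order was thus p, then m, then o from lowest to highest, and the difference between p and m did not pass the test, although their arrays did not overlap. The isomers were given at different doses, and all these differences compare the exposures as they were made.

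GNP1, the paralog of AGP1, encodes a permease for glutamine and other amino acids. It had values of -2.86 and -0.77 on p-nitrophenol arrays 2 and 3, -1.44 and -2.11 on m-nitrophenol arrays 2 and 3, and -2.13, -1.82 and -3.49 on the o-nitrophenol arrays. Every measured array was below 0, and the isomers overlapped. All 3 of its o-nitrophenol values came from high-power scans alone. GNP1 fell by 2.48 ± 0.46 in o-nitrophenol (5.57-fold, adjusted p = 0.00528), the lowest mean among the 10 genes in any treatment, and all 18 alternatives that tested it kept the call. It also fell in p-nitrophenol, with a mean of -1.81 ± 0.56 and an adjusted p of 0.0478 just below the threshold. Of 18 alternatives 12 kept that call, and it ended with the replicate number as a block (0.0616), without p-nitrophenol array 1 (0.0588) or 2 (mean -0.77, 0.482), without m-nitrophenol array 2 (0.0722) or 3 (0.0717) and without o-nitrophenol array 2 (0.0566). Without p-nitrophenol array 3 the mean was -2.86 (0.0397). In m-nitrophenol its mean was -1.78 ± 0.56 (adjusted p = 0.0629), and 4 of 18 alternatives called it, those with all scans (0.0344), without the 3 arrays numbered 1 (0.0251) and without p-nitrophenol array 2 (0.0414) or 3 (0.0472). The paralogs AGP1 and GNP1 thus had means of opposite sign after o-nitrophenol, 0.85 and -2.48. Whether probes of paralogs (AGP1 and GNP1, BAP2 and BAP3) bind each other's RNA was not tested, since probe sequences were not used here.

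BAP2 and BAP3, a second pair of paralogs, encode permeases for branched-chain and further amino acids. BAP3 had values of -2.42, -1.24 and -0.73 in p-nitrophenol, -1.22 and -1.30 on m-nitrophenol arrays 2 and 3, and -0.40, 0.51 and 0.35 in o-nitrophenol. Its o-nitrophenol arrays all lay above those of the other isomers, the same order as in AGP1. BAP3 fell by 1.46 ± 0.35 in p-nitrophenol (adjusted p = 0.016), a call that ended without p-nitrophenol array 1 (mean -0.98, 0.0637) or 2 (0.0583). The m-nitrophenol mean was -1.26 ± 0.42 (adjusted p = 0.0688), and 5 of 19 alternatives called it, with quantile scaling (0.0204), with the replicate number as a block (0.044), without the 3 arrays numbered 1 (0.00343), without p-nitrophenol array 1 (0.0254) and without o-nitrophenol array 1 (0.0471). The o-nitrophenol mean was 0.15 ± 0.35 (adjusted p = 0.753).

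The difference in BAP3 was 1.62 ± 0.49 between o- and p-nitrophenol (interval 0.52 to 2.72, adjusted p = 0.13) and 1.41 ± 0.55 between o- and m-nitrophenol (interval 0.18 to 2.64, adjusted p = 0.222), so neither passed in the fit of all arrays. Without the 3 arrays numbered 1 both did, at 1.41 (adjusted p = 0.0199) and 1.69 (0.01), and with the replicate number as a block they did at 1.62 (0.0435) and 1.79 (0.0498). Over all alternatives the adjusted p ran from 0.0199 to 0.312 and from 0.01 to 0.56. The scans of o-nitrophenol array 1 differed for this gene too, with 0.12 at high and -0.92 at low power.

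BAP2 had values of 0.88, 0.83 and 1.15 in p-nitrophenol. The m-nitrophenol arrays gave -0.13, 0.08 and 0.16, and the o-nitrophenol arrays 1.11, -1.05 and -1.14. The p-nitrophenol arrays lay close together above 0, while o-nitrophenol array 1 was of opposite sign to arrays 2 and 3. The p-nitrophenol mean of 0.95 ± 0.39 (interval 0.09 to 1.82) had an adjusted p of 0.0963, and passed in 3 of 19 alternatives, with all scans (0.0388), without the arrays numbered 1 (0.0085) and without o-nitrophenol array 1 (0.0084). The means were 0.04 ± 0.39 in m- and -0.36 ± 0.39 in o-nitrophenol. Without o-nitrophenol array 1 the o-nitrophenol mean was -1.09 and passed (adjusted p = 0.0108, over all alternatives 0.00386 to 0.984). The difference of o minus p, -1.31 ± 0.55 with all arrays (interval -2.53 to -0.09, adjusted p = 0.23), was then -2.05 (0.0167). Without all 3 arrays numbered 1 it was -2.09 (0.00461), and the o-nitrophenol mean was -1.09 (0.00386). That fit called 1081 of all genes in o minus p and 2622 in o-nitrophenol.

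TAT1, which carries tyrosine, tryptophan and branched-chain amino acids, was below 0 on all 9 arrays. Its values were -0.98, -1.32 and -0.49 in p-nitrophenol. The m-nitrophenol arrays were at -1.20, -1.81 and -1.38, and the o-nitrophenol arrays at -1.69, -0.92 and -0.92. The 3 isomers overlapped. TAT1 fell by 0.93 ± 0.27 in p- (adjusted p = 0.0324), by 1.47 ± 0.27 in m- (0.00643) and by 1.18 ± 0.27 in o-nitrophenol (0.00957). The p-nitrophenol call ended without any 1 of its arrays (0.0819, 0.19 and 0.0586 without arrays 1, 2 and 3) and without m-nitrophenol array 3 (0.0536). The m-nitrophenol call ended without its array 2 (0.087) or 3 (0.052), and the o-nitrophenol call with low-power scans alone (mean -0.83, 0.0603). In the R64 annotation TAT1 is the next protein-coding gene beside BAP2 on chromosome II, and both are on the same strand. After p-nitrophenol the neighbours had means of opposite sign, -0.93 for TAT1 and 0.95 for BAP2, the latter not called.

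TAT2 encodes the high-affinity tryptophan and tyrosine permease. Its values were -2.68, -0.97 and -1.46 in p-nitrophenol, -0.29 and -0.72 on m-nitrophenol arrays 2 and 3, and -2.33, -1.31 and -2.09 in o-nitrophenol. Both m-nitrophenol arrays lay above all arrays of the other isomers. The values of o-nitrophenol arrays 1 and 3 came from high-power scans alone. TAT2 fell by 1.71 ± 0.36 in p- (3.26-fold, adjusted p = 0.01) and in o-nitrophenol, with a mean of -1.91 ± 0.36 (3.77-fold, 0.00425), and all 18 alternatives kept both calls. The m-nitrophenol mean was -0.50 ± 0.44 (adjusted p = 0.458), with an interval of -1.49 to 0.48. The difference of o minus m was -1.41 ± 0.57 (interval -2.68 to -0.14, adjusted p = 0.236), and that of m minus p 1.20 (interval -0.07 to 2.47, adjusted p = 0.683).

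DIP5, the permease of glutamate and aspartate, had values of 1.28, -1.26 and -0.01 in p-nitrophenol, which spread around 0. In m-nitrophenol they were -0.76, -0.81 and -0.52, and the o-nitrophenol arrays gave -0.93, -2.48 and -1.65. DIP5 fell by 1.69 ± 0.43 in o-nitrophenol (adjusted p = 0.015), and the call ended without o-nitrophenol array 2 (mean -1.29, 0.113) or 3 (0.0699). The means were 0.00 ± 0.43 in p- and -0.70 ± 0.43 in m-nitrophenol (adjusted p = 0.997 and 0.29). The o-nitrophenol arrays were all below the m-nitrophenol arrays and overlapped with the p-nitrophenol arrays. The difference of o minus p was -1.69 ± 0.61 (interval -3.05 to -0.33, adjusted p = 0.174).

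HIP1 and CAN1 encode the histidine and the arginine permease, and neither passed in any treatment. HIP1 was at -2.88, -0.90 and -1.03 in p-nitrophenol, at -1.08 and -1.40 on m-nitrophenol arrays 2 and 3, and at 1.47, -1.41 and -2.20 in o-nitrophenol, where array 1 alone was above 0. The value of 1.47 came from the high-power scan alone. Its means were -1.60 ± 0.63 (adjusted p = 0.0923), -1.24 ± 0.78 (0.296) and -0.71 ± 0.63 (0.412). Without the 3 arrays numbered 1 all 3 treatments passed, with means of -0.97, -1.24 and -1.81 and adjusted p of 0.0179, 0.00599 and 0.000727. That fit called 2145, 2042 and 2622 of the 5096 tested genes. Leaving out o-nitrophenol array 1 alone gave -1.60 (0.0157) in p- and -1.81 (0.0217) in o-nitrophenol. With low-power scans alone HIP1 was called lower in p- (mean -1.71, 0.014) and o-nitrophenol (-1.82, 0.0222). Over all alternatives the adjusted p of HIP1 ran from 0.014 to 0.371 in p-, from 0.00599 to 0.638 in m- and from 0.000727 to 0.981 in o-nitrophenol.

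CAN1 was at -1.75, -0.89 and -1.24 in p-nitrophenol, at -0.47 and -1.05 on m-nitrophenol arrays 2 and 3, and at -0.12, -2.40 and 0.10 in o-nitrophenol, where array 2 lay far below the others. The p-nitrophenol mean of -1.30 ± 0.45 had an adjusted p of 0.0632, and 5 of 19 alternatives called it, with adjusted p from 0.0154 to 0.212 over all 19. Those 5 included the fits without o-nitrophenol array 1 (0.0481) or 2 (0.0154). The means of -0.76 ± 0.55 in m- and -0.81 ± 0.45 in o-nitrophenol had adjusted p of 0.37 and 0.196.

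GAP1, the general permease that nitrogen supply controls, was measured on arrays 2 and 3 of each isomer. Values were -0.95 and 0.15 in p-, -0.12 and 1.08 in m- and -0.45 and -0.48 in o-nitrophenol, and it passed in no treatment under any alternative. The means were -0.40, 0.48 and -0.46, each ± 0.43, with intervals of -1.40 to 0.60, -0.52 to 1.48 and -1.47 to 0.54. Changes of 2-fold in GAP1 thus lie inside each of these intervals in at least 1 direction.

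**Figure D2:**
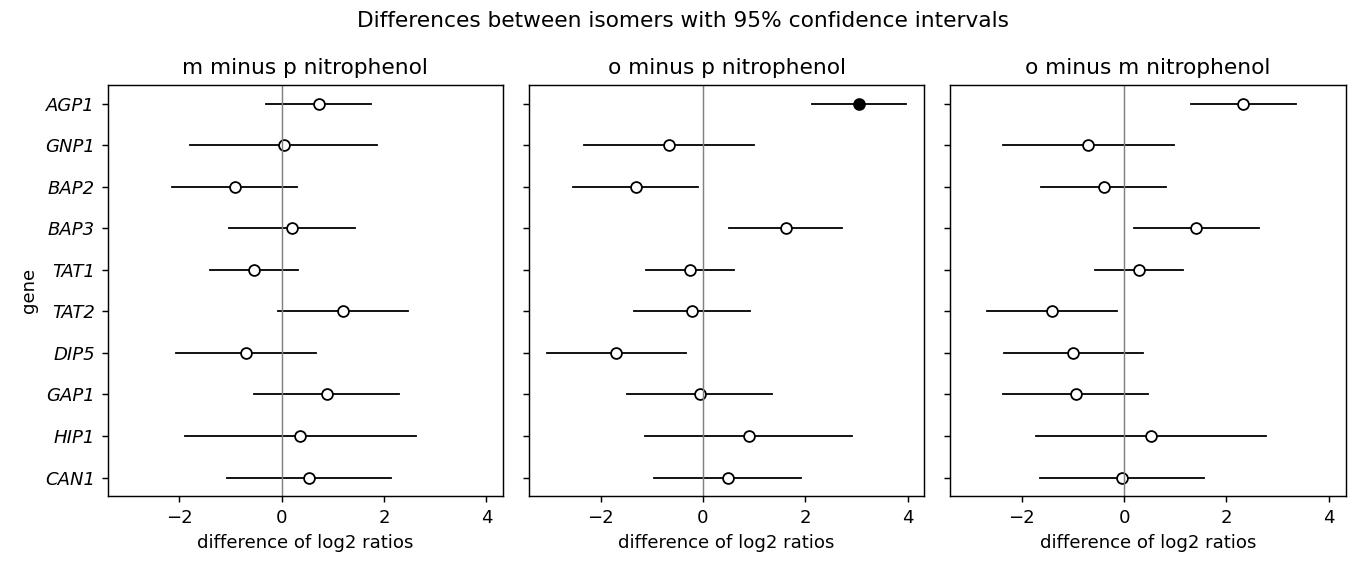
Difference of mean log2 ratios (horizontal) of each permease gene (vertical) between isomers, with 95% confidence intervals; the filled point passed an adjusted p of 0.05. AGP1 in o minus p is the only filled point, and the AGP1 and BAP3 intervals of both comparisons with o-nitrophenol lie above 0.

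Across the 3 pairs of isomers 30 differences were tested for the 10 genes. Between m- and p-nitrophenol limma called 0 of the 10 in either direction, and 0 at an unadjusted p under 0.05, where 0% of all genes were called higher and 0.0196% lower. Between o- and m-nitrophenol 0 were called either way, against 0.412% higher and 0.314% lower of all genes, and 2 were higher and 1 lower at an unadjusted p under 0.05. With the replicate number as a block 2 were higher in o minus m, AGP1 and BAP3. Of the 30 differences 7 had an unadjusted p under 0.05, and all 7 are given above (AGP1, BAP2, BAP3 and DIP5 in o minus p, AGP1, BAP3 and TAT2 in o minus m). The other 23 lay between -0.99 and 1.20, with 95% half-widths of 0.86 to 2.25 and adjusted p from 0.427 to 0.994.

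High- and low-power scans of an array gave similar ratios for most of these genes, except on o-nitrophenol array 1. In 70 pairs of values the median absolute difference was 0.15, and 3 pairs differed by more than 1. All 3 were on o-nitrophenol array 1, in AGP1, BAP3 and CAN1 (0.50 at high and -0.74 at low power), and in all 3 the high-power ratio was the higher. The part of scan and array in the o-nitrophenol results was not tested beyond the fits without that array or with one kind of scan.

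**Figure D3:**
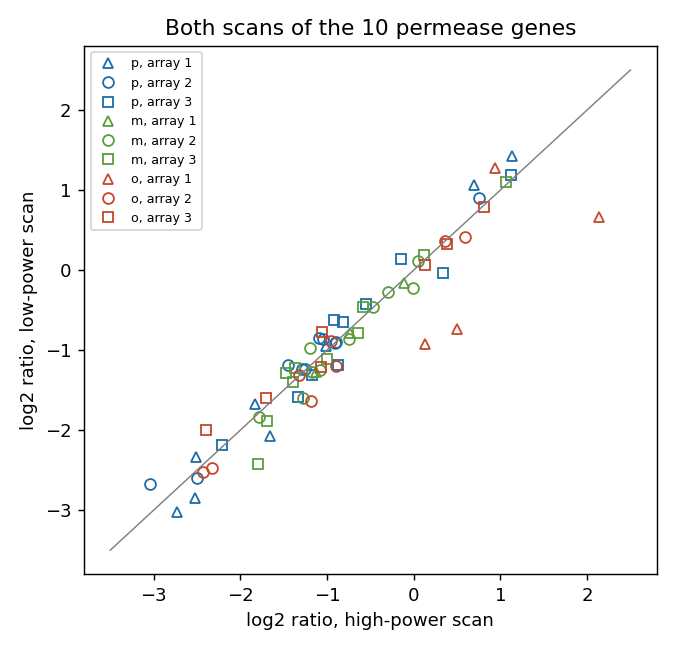
Log2 ratio of the 10 permease genes in the high-power scan (horizontal) against the low-power scan (vertical) of the same array; colours give the isomer, symbols the array, and the line marks equal values. The 3 points more than 1 below the line are AGP1, CAN1 and BAP3 on o-nitrophenol array 1.

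Of 10 further amino acid permease genes listed, 9 were tested, and after o-nitrophenol 3 rose and 0 fell, where 13.8% of all genes rose and 18.7% fell. MUP1, the high-affinity methionine permease, rose by 3.34 ± 0.48 (adjusted p = 0.00138), MUP3, its low-affinity relative, by 1.83 ± 0.52 (0.0249), and ALP1, of the arginine permease type, by 1.41 ± 0.36 (0.0219). The MUP1 call held under every alternative, MUP3 ended without o-nitrophenol array 1 (mean 1.19, 0.114), 2 (0.0522) or 3 (0.057), and ALP1 with all scans (0.16) and without o-nitrophenol array 2 (0.171) or 3 (0.0943). In p- and m-nitrophenol limma called 0 of the 9 in either direction, with 1 and 2 higher and 0 lower at an unadjusted p under 0.05. Their median log2 ratio was 0.00, 0.30 and 0.54 in p-, m- and o-nitrophenol.

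In the SPS sensor pathway 11 of 13 listed genes were tested. After p-nitrophenol 1 rose and 2 fell, after m-nitrophenol 1 fell and after o-nitrophenol 3 fell. Of all genes 13.0% rose and 11.9% fell in p-nitrophenol, 9.65% fell in m- and 18.7% in o-nitrophenol, so numbers this small lie near the shares of all genes. PTR2, the peptide transporter and SPS target, fell by 2.30 ± 0.34 in p-nitrophenol (adjusted p = 0.00212), and its means in m- and o-nitrophenol were -1.02 (0.0615) and -0.93 (0.0566). STP1, the transcription factor itself, rose by 1.89 ± 0.35 in p-nitrophenol (0.00511), where the SPS targets AGP1, BAP3, TAT1, GNP1 and PTR2 fell and the targets BAP2 and DIP5, with means of 0.95 and 0.00, were not called. The casein kinase genes YCK1 and YCK2, whose products phosphorylate sensor components, also passed. YCK2 fell by 1.34, 1.41 and 0.72 in p-, m- and o-nitrophenol (0.00407, 0.00393 and 0.0397) and the o-nitrophenol mean of YCK1 was -1.57 (0.00346). The o-nitrophenol call of YCK2 ended in 10 alternatives, centring (0.0883), quantile scaling (0.161) and each fit without an o-nitrophenol array (0.0939 to 0.126) among them.

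Of 11 genes of the nitrogen GATA pathway, 7 were tested. After p-nitrophenol GLN3, the GATA activator, rose by 1.35 ± 0.26 (adjusted p = 0.00739) and the ammonium permease gene MEP1 fell by 1.12 ± 0.35 (0.0469). In o-nitrophenol the ammonium permease gene MEP3 rose by 1.52 ± 0.27 (0.00321) and the repressor gene DAL80 by 1.38 ± 0.35 (0.023), and 0 fell. In m-nitrophenol limma called 0, with 1 higher and 0 lower at an unadjusted p under 0.05. Over all genes 13.0% rose and 11.9% fell in p-, 8.26% and 9.65% in m-, and 13.8% and 18.7% in o-nitrophenol. The p-nitrophenol counts, 1 rising and 1 falling, lie near those shares. The MEP1 call ended in 6 leave-one-out fits (0.0509 to 0.343) and the DAL80 call without o-nitrophenol array 2 (0.0662) or 3 (0.21).

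Among 16 genes of permease traffic and turnover, 1 rose and 3 fell in p-, 1 rose and 2 fell in m-, and 2 rose and 6 fell in o-nitrophenol. Over all genes 13.0% rose and 11.9% fell in p-, 8.26% and 9.65% in m-, and 13.8% and 18.7% in o-nitrophenol, and the p- and m-nitrophenol counts lie near those shares. LST4, needed to sort Gap1 to the cell surface, fell in p- and o-nitrophenol, with means of -1.79 ± 0.29 (adjusted p = 0.00289) and -1.16 ± 0.29 (0.0143). ALY1 and ALY2 encode arrestin-like adaptors of the ubiquitin ligase Rsp5. ALY1 fell by 1.17 in p- (0.0111) and by 0.89 in o-nitrophenol (0.0247), and ALY2 by 1.60 in o-nitrophenol (0.0125). MEH1, of the vacuolar EGO complex of amino acid signalling, rose by 1.06, 1.35 and 1.37 in p-, m- and o-nitrophenol (0.025, 0.0273 and 0.0158). Without o-nitrophenol array 2 the o-nitrophenol calls of LST4 (0.0802), ALY1 (0.133), ALY2 (0.0933) and MEH1 (0.19) ended, and without array 3 those of LST4 (0.12), ALY1 (0.116) and ALY2 (0.0836). The o-nitrophenol call of ALY1 also ended after centring (0.0544) and quantile scaling (0.0573). The p-nitrophenol call of ALY1 ended without array 2 (0.0614), that of MEH1 without any 1 of the p-nitrophenol arrays (0.0726 to 0.115), and its m-nitrophenol call without array 2 (0.271) or 3 (0.154).

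Transporters of the vacuolar membrane store and release amino acids inside the cell. Of 14 listed 13 were tested, and 5 fell and 0 rose in p- (1 higher at an unadjusted p under 0.05), 1 fell and 0 rose in m- (0 higher unadjusted), and 6 fell and 1 rose in o-nitrophenol. Of all genes 11.9%, 9.65% and 18.7% fell in p-, m- and o-nitrophenol, and 13.0%, 8.26% and 13.8% rose. The rising counts are not above these shares. AVT1, a vacuolar importer, fell by 1.82 ± 0.37 in p- (adjusted p = 0.00893) and 1.68 ± 0.37 in o-nitrophenol (0.00904). AVT2 fell by 0.83 (0.041) and 1.63 (0.0021), and ERS1, of the cystine transporter family, by 0.97 (0.036) and 2.00 (0.0036). YPQ1 was lower in all 3 treatments, with means of -2.24 (0.0349), -2.22 (0.0216) and -2.46 (0.00829) in p-, m- and o-nitrophenol. It was the 1 listed gene called in m-nitrophenol. RTC2, for a vacuolar transporter of cationic amino acids, rose by 4.18 ± 0.73 in o-nitrophenol (0.00266), and its differences from p- and m-nitrophenol were 2.39 ± 1.03 (0.241) and 3.36 ± 1.03 (0.13). The RTC2 mean was 2.63 with low-power scans (0.00282) and 2.68 without o-nitrophenol array 1 (0.00141). The AVT1 calls ended without array 2 or 3 of the isomer concerned (0.067 and 0.0596 in p-, 0.0511 and 0.0517 in o-nitrophenol), and the o-nitrophenol call of ERS1 without array 3 (0.0586). The p-nitrophenol call of AVT2 ended in 8 alternatives and that of ERS1 in 6, each including the fits without p-nitrophenol array 2 (0.105 and 0.137) or 3 (0.155 and 0.181).

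**Figure D4:**
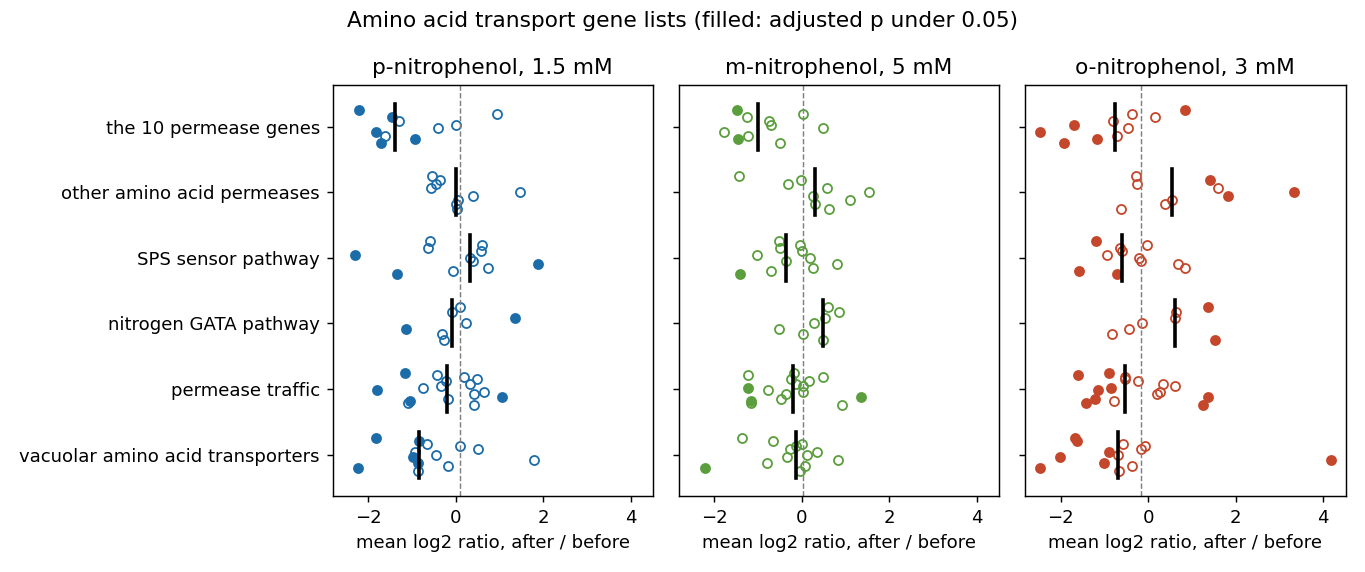
Mean log2 ratio (horizontal) of each tested gene of 6 lists (vertical) in p-, m- and o-nitrophenol; filled points passed an adjusted p of 0.05, bars are list medians and the dashed line is the median of all genes. The 10 permease genes have medians of -1.38, -1.0 and -0.76, and the further permeases 0.00, 0.30 and 0.54.

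BAP2, TAT1 and DIP5 had values on all 9 arrays, and for them the most alike genes were sought among the 1757 genes measured on all 9. BAP2 ran closest to FLC3 (Pearson r = 0.94) and to NPR1 (0.92), a kinase gene of permease regulation. TAT1 ran closest to OCA1 (0.85) and to KEX2 (0.84), a Golgi protease gene, and DIP5 to MRX9 (0.98) and BTS1 (0.96), which encodes geranylgeranyl diphosphate synthase. These are descriptions over 9 arrays that share the array and its normalization between genes, and they carry no test.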

How the data were processed

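The deposited values are log2 ratios of 18 scans (9 arrays at high and low laser power) that the authors normalized with LOWESS using spots of flag 0, per the labels. That the scale is log2 follows from 13 values at the log2 of a ratio of 0.01. The background correction was not given in the sources used here. The value of an array is the mean of its scans, or that of the 1 scan with a value. Probes were named through an old platform annotation, with symbols updated by Entrez identifier in RefSeq's R64 gene table (5360 of 5365 genes matched); probes of a gene were averaged, and 66 of 99 genes with several probes hold identical copies. Coordinates are left out because the values name no build, and no sequences were used here.

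limma 3.58.1 in R 4.3.3 fitted group means to the 9 arrays, for genes with values on at least 2 arrays of each isomer. Genes on all 9 arrays (BAP2, TAT1 and DIP5 of the 10) had 6 residual degrees of freedom and the others fewer. The prior had 4.406. Standard errors used each gene's own arrays. The code was tested on simulated data. The number of arrays limits the precision, and no spot intensities were analysed here. The 10 genes, the gene lists and the tests were chosen with earlier results of these data known. All 10 genes were named, and of each further list up to 4 called genes with the lowest p. YPQ1 was named in addition, as the only vacuolar transporter gene called in m-nitrophenol. The 2 genes most like each permease gene on all 9 arrays were named as well. A planned search of promoter motifs was not made. Random blocks used statmod 1.5.0. The replicate number was a random block in the contrasts with the time before treatment. In the differences between isomers it was a fixed term, for genes with enough arrays to fit it. Deviations of same-numbered arrays from their group means were correlated across 1757 genes. Between p and o r was 0.27 to 0.37, between p and m 0.12 to 0.26 and between m and o 0.06 to 0.22. All 9 pairs were above 0, and 1 of them, of m and o, was under 0.1. Pairs of differently numbered arrays ran from -0.35 to 0.23. The main fit has no block, and blocked values stand beside calls of the 10 genes that they change.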

Additional observations from a re-analysis of the deposited data

Results flagged for a closer look

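AGP1 is listed because its response differed between isomers. The difference of o minus p of 3.06 passed the test of the difference itself (adjusted p = 0.00897 in limma), and every o-nitrophenol array was above 0 and every p-nitrophenol array below. The difference of o minus m of 2.33 (adjusted p = 0.0539) is listed because the 3 o-nitrophenol arrays were above 0 and both m-nitrophenol arrays that measured AGP1 below. The share of all genes with such opposite signs was not counted. Arrays also lay apart in differences that limma did not call, such as BAP2 in m minus p and GAP1 in o minus m. Groups of 3 arrays are too small for a check of outlying samples.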

How the results depend on the processing

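All of the 19 alternatives were run, and each changed 1 choice. Of the 12 calls of permease genes against the time before treatment 4 held under every alternative that tested them (AGP1 and TAT2 in p-, GNP1 and TAT2 in o-nitrophenol), as did 11 of 28 calls among the named genes of the other lists. YPQ1 was not followed through the alternatives. With low-power scans 7 of the 10 genes could be tested, and GNP1, TAT2 and GAP1 were not among them. No called value changed sign. DIP5 in p-nitrophenol, near 0 with all arrays, was -0.10 with high-power scans, -0.0937 after centring, -0.15 after quantile scaling and -0.64 without the 3 arrays numbered 1, BAP2 in m-nitrophenol was -0.0046 after quantile scaling, and BAP3 in o-nitrophenol -0.0588 with low-power scans. Leaving out 1 array at a time, ranges across 0 were -0.64 to 0.64 (DIP5) and -0.95 to 0.15 (GAP1) in p-, -0.0246 to 0.12 (BAP2) and -0.12 to 1.08 (GAP1) in m-, and -1.09 to 0.0276 (BAP2), -0.0223 to 0.43 (BAP3) and -1.81 to 0.0302 (HIP1) in o-nitrophenol.

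The numbers of permease genes called moved by over 1.5 times as follows, smaller moves being left out except under leave-one-out. With high-power scans 1 was lower in m-nitrophenol. With low-power scans 2 were lower and 0 higher in o-nitrophenol and 1 higher in o minus m. With all scans 1 was higher in p- and 0 in o-nitrophenol. Centring gave 1 higher in o minus m, quantile scaling 1 there and 0 higher in o-nitrophenol, and a robust variance model 0 higher in o-nitrophenol. Without the 3 arrays numbered 1 these were 1 higher in p-, 5 lower in m- and 0 higher in o-nitrophenol, 2 higher and 1 lower in o minus p, with the same numbers, 2 and 1, for o minus m. Leaving out 1 array at a time gave 2 to 7 lower and 0 to 1 higher in p-, 0 to 3 lower in m-, 3 to 6 lower and 0 to 1 higher in o-nitrophenol, 0 to 1 lower and 0 to 1 higher in o minus p, with 0 to 1 higher for o minus m. Fits without an array hold fewer samples by construction, and a group left with 1 array is assumed to vary like the others. Other causes were not tested.

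With the replicate block, o minus p had 2 genes higher, and o minus m also had 2. It ended the p-nitrophenol call of GNP1 and called BAP3 in m-nitrophenol and in both comparisons with o, and AGP1 in o minus m. The replicate block changed no other call of the 10 genes.

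Over all genes, leaving out 1 array gave 499 to 1701 calls in p- (1267 with all), 147 to 1277 in m- (913), 841 to 1925 in o-nitrophenol (1652), 0 to 4 in m minus p (1), 6 to 211 (60) in o minus p, with 2 to 293 (37) for o minus m. Without the 3 arrays numbered 1 the counts were 2145, 2042, 2622, 291, 1081 and 1048. For o minus p, then o minus m, low-power scans gave 111 and 146, all scans 252 and 225, the replicate block 194 and 198, and high-power scans 12 and centring 66 in o minus m. In m minus p the other alternatives called 0 to 2. With centring, the all-gene median shifted by 0.16 (o-nitrophenol), 0.26 (o minus p), 0.22 (o minus m), and with quantile scaling by 0.13, 0.14 and 0.12. Centring moved the share of higher calls from 42.4% to 54.5% in o-nitrophenol, from 70.0% to 85.2% in o minus p, with 56.8% and 78.8% for o minus m.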
